A study of Mus musculus with 36 samples.

Results

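The expression of 8 genes of triglyceride resynthesis and lipid droplet turnover was followed through retinoid treatment of mouse intestinal organoids. They are Cd36 and Slc27a4 (fatty acid uptake), Mogat2, Dgat1 and Dgat2 (triglyceride synthesis), Plin2 and Plin3 (droplet coat) and Pnpla2 (lipolysis). The 8 genes were taken by symbol from the 12652 genes of the expression table. All 8 were among the 11361 genes tested, which needed at least 1 RPKM (a read count divided by gene length and by the size of the library) in at least 4 libraries. Cd36 reached 1 RPKM in 12 of 36 libraries, those of DMSO, atRA and 9cisRA at 24 h, so it entered the tests only through these groups. Its tests of these groups against the others, and its place in the counts of called genes below, are not independent of that selection.

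The organoids, self-organising epithelial cultures, came from 2 male wild-type C57BL/6 littermates aged 8 weeks, 1 culture per mouse. Cells were seeded singly and kept until day 3 in ENR, a medium with EGF, Noggin, R-Spondin, B27, N2 and N-acetylcysteine, to which Wnt3a-conditioned medium, the ROCK inhibitor Y-27632 and the GSK3 inhibitor CHIR99021 had been added. One group was taken at that point (0 h, no treatment). The others were moved to ENR without these additions and received, at the same moment, vehicle (DMSO), 10 µM atRA (all-trans retinoic acid), 10 µM 9cisRA (the isomer with a double bond in the cis geometry) or 5 µM RXRi, an antagonist of retinoid X receptors that the labels do not name further, for 6 h or 24 h. Each of the 9 conditions had RNA purified in duplicate from each mouse, 36 libraries in all, with 3 culture wells pooled per RNA. The replicate is the mouse (n = 2), and the spread between mice is that between 2 cultures. Changes from 0 h combine vehicle, medium change and time, which cannot be told apart.

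Enterocytes take up fatty acids and monoacylglycerol from the gut lumen and rebuild triglyceride in the endoplasmic reticulum. Mogat2 encodes the acyltransferase that turns monoacylglycerol into diacylglycerol, and Dgat1 and Dgat2 encode unrelated enzymes that add the last fatty acid. The product leaves in chylomicrons or is stored in droplets coated by perilipins (Plin2, Plin3), from which adipose triglyceride lipase (Pnpla2) releases the first fatty acid. Retinoic acid receptors bind all-trans and 9-cis retinoic acid and act on DNA as pairs with retinoid X receptors (RXRs). RXRs also pair with receptors for fatty acids, oxysterols, bile acids and vitamin D, and are known to bind repeats of the hexamer AGGTCA.

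RefSeq promoter windows (GRCm38.p6, 250 bases before to 50 after a start site) were at hand for 5 of the 8 genes (Cd36, Slc27a4, Plin2, Plin3 and Pnpla2). The hexamer AGGTCA, read on both strands (TGACCT on the other), occurred once in the windows of Plin2 and Cd36 and is present in 16.3% of all 32851 windows. The pair is shown because Plin2 rose and Cd36 fell with RXRi at 24 h. The capitals mark the hexamer, which on the printed strand reads TGACCT, and the 250 bases before the start site are printed 5′ to 3′, both from the minus strand, Plin2 from chr4:86670060-86670309 and Cd36 from chr5:17835897-17836146.
Plin2: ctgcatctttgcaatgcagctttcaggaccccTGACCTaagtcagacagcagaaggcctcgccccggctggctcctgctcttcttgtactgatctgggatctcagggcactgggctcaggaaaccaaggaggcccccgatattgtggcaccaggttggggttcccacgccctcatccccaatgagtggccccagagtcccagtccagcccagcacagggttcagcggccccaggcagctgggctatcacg
Cd36: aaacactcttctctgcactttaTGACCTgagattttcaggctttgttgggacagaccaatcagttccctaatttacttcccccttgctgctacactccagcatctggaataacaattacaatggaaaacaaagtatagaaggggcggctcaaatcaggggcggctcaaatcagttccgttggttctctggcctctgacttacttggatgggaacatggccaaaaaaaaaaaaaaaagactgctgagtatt
The hexamer begins 218 bases before the start site in Plin2 and 228 in Cd36, whose window belongs to one start site inside the longer annotated gene. A tandem pair of hexamers in the same orientation with 1, 2 or 5 bases between them was in 13, 3 and 3 of all windows and in no window of the 5 genes. These matches are descriptions of letters and carry no measurement of binding.

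In GENCODE M21 on GRCm38, Mogat2 (chr7:99219084-99238619) and Dgat2 (chr7:99153658-99182719) lie 36.4 kb apart on the minus strand. Dgat1 lies at chr15:76502015-76511953, Plin2 at chr4:86648386-86670060, Plin3 at chr17:56277476-56292873 and Cd36 at chr5:17781690-17888801, all on the minus strand. Slc27a4 (chr2:29802634-29817522) and Pnpla2 (chr7:141455198-141460743) are on the plus strand. Exons of Mogat2 overlap those of Gm45012 on the opposite strand. Use of strand in counting is not given in the sources used here, so reads of this pair cannot be told apart.

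The libraries held 19.6 to 30.7 M recovered reads over the listed genes. Cd36 had 10 to 757 reads per library and the other 7 genes had between 871 and 18681. Epithelial markers were high throughout (Epcam 355 to 559.6 RPKM). Values for adipocyte and endothelial markers were not analysed here, and 3 of 5 leukocyte markers summed to 3.59 to 8.48 RPKM, with none of the 3 at 0. The 5 enterocyte markers (Alpi, Sis, Apoa4, Fabp1, Fabp2), none of them at 0 in any library, summed to 1205 to 1808 RPKM at 0 h and, at 24 h, to 8097 to 13261 with DMSO, 16779 to 23827 with atRA, 20378 to 27054 with 9cisRA and 2783 to 4558 with RXRi. Most of each sum was Fabp1, with means at 24 h of 7776 RPKM with DMSO, 17181 with atRA, 19123 with 9cisRA and 3062 with RXRi. Alpi, Sis and Apoa4 are not given by condition, so the sums mainly describe Fabp1. In bulk RNA, fewer cells of a type and less RNA per cell cannot be told apart.

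Differences below are log2 differences ± SE on the scale of log2(RPKM + 0.5) from limma, with Benjamini-Hochberg adjustment over all genes tested and calls at an adjusted p below 0.05. Levels are RPKM, per library (of 4 values in a row, the first pair is from mouse 1) or as mean ± SD over n = 2 mice, and fold values are ratios of mean RPKM. The 3 compounds were set against the same DMSO libraries, so their differences from DMSO are not independent.

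**Figure D1:**
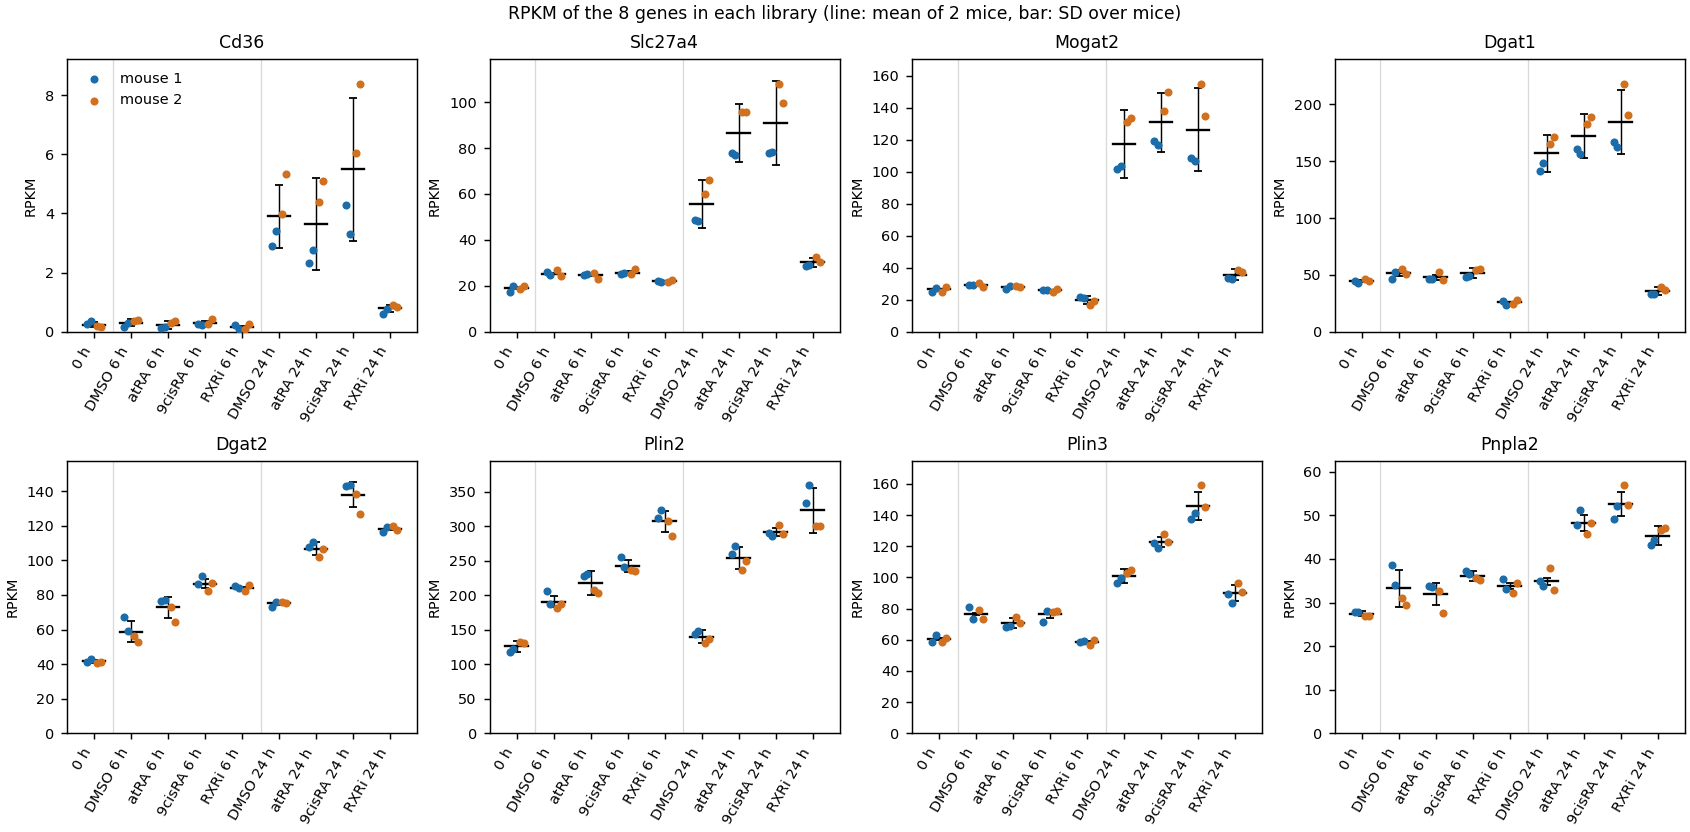
RPKM of each gene (vertical axis, linear from 0) in the 36 libraries by condition (horizontal axis). Points are libraries coloured by mouse, lines are means of 2 mice and bars the SD over mice. Cd36, Slc27a4, Mogat2 and Dgat1 were low until 24 h and low again with RXRi at 24 h, while Dgat2 and Plin2 with RXRi at 24 h stood above every DMSO library.

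Cd36, a fatty acid translocase of the cell surface, was listed with only 10 to 49 reads per library before 24 h. At 0 h its 4 libraries read 0.249, 0.366, 0.193 and 0.160 RPKM, and with DMSO at 6 h 0.166, 0.305, 0.376 and 0.400 RPKM. At 24 h the values were 2.90 and 3.41 RPKM in mouse 1 and 4.00 and 5.32 RPKM in mouse 2 with DMSO, against 0.612 and 0.785 RPKM in mouse 1 and 0.911 and 0.848 RPKM in mouse 2 with RXRi. Every RXRi library was thus below every DMSO library at 24 h, and every DMSO library at 24 h was above all at 0 h. Cd36 rose 16.1-fold from 0 h to 24 h in DMSO (2.55 ± 0.20, adjusted p = 2.81e-07) and was 4.95-fold lower with RXRi than with DMSO at 24 h (-1.75 ± 0.20, adjusted p = 5.91e-06). Both tests involve a group through which Cd36 passed the filter, so their p-values are not independent of that selection. The pseudocount compresses such low levels, and limma-voom on recovered reads gave 4.15 and -2.31 for these differences. The limma-voom fit, here and below, took all 36 libraries as samples, so the duplicates of a mouse counted separately. A fit of the compared conditions alone, also used below, left few values for the error. Its p-values lean on the spread of other genes more than those of the main fit. With 9cisRA at 24 h the libraries read 4.28, 3.30, 6.03 and 8.38 RPKM, overlapping DMSO (0.40 ± 0.20, adjusted p = 0.121). That difference passed the threshold in limma-voom (0.47, adjusted p = 0.00508), with 36 libraries as samples (adjusted p = 0.0336), in a fit of these conditions alone (adjusted p = 0.000116) and in mouse 2 alone (adjusted p = 0.0133). The atRA libraries at 24 h ranged from 2.31 to 5.10 RPKM (-0.11 ± 0.20, adjusted p = 0.693). The libraries at 0 h and in the 4 conditions at 6 h overlapped. The RXRi difference at 6 h missed the threshold at -0.28 ± 0.20, adjusted p = 0.355, and passed it in limma-voom at -1.04 with adjusted p = 0.0424, on 10 to 42 reads per library.

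Slc27a4 (fatty acid transport protein 4), an acyl-CoA synthetase of the enterocyte, separated the compounds at 24 h. With DMSO at 24 h it read 48.6 and 48.3 RPKM in mouse 1 and 60.03 and 66.2 RPKM in mouse 2. The values with atRA were 78.0 and 77.1 RPKM in mouse 1 and 95.6 and 95.5 RPKM in mouse 2, and with 9cisRA 77.7 and 78.1 RPKM in mouse 1 and 108 and 99.5 RPKM in mouse 2. RXRi gave 28.7 and 29.0 RPKM in mouse 1 and 32.6 and 30.4 RPKM in mouse 2. All 8 retinoid libraries lay above all DMSO libraries, and all RXRi libraries lay below. The differences from DMSO were 0.63 ± 0.10, adjusted p = 0.000399 for atRA, 0.70 ± 0.10, adjusted p = 0.000133 for 9cisRA and -0.86 ± 0.10, adjusted p = 7.59e-06 for RXRi. At 6 h every condition lay between 21.6 and 27.5 RPKM. The RXRi libraries were the lowest of these and did not overlap DMSO, yet the difference missed the threshold (-0.20 ± 0.10, adjusted p = 0.18). It passed with 36 libraries as samples (adjusted p = 0.0369), in limma-voom (adjusted p = 0.0331), in a fit of these conditions alone (adjusted p = 0.0125) and in mouse 1 alone (adjusted p = 0.0306). In DMSO, Slc27a4 rose by 6 h (0.40 ± 0.10, adjusted p = 0.00615) and again by 24 h, when it was 2.93-fold its level at 0 h (1.51 ± 0.10, adjusted p = 6.19e-08). The summed enterocyte markers given above, mostly Fabp1, moved the same way as Slc27a4 in all 3 comparisons with DMSO at 24 h. The part of these markers in the Slc27a4 differences was not tested.

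Mogat2 rose late and fell with RXRi at both times. It read 25.1, 27.5, 25.1 and 28.1 RPKM at 0 h and 29.1, 29.2, 30.5 and 27.7 RPKM with DMSO at 6 h. At 24 h the values were 102 and 103 RPKM in mouse 1 and 131 and 134 RPKM in mouse 2 with DMSO and 33.4 and 32.9 RPKM in mouse 1 and 38.9 and 37.3 RPKM in mouse 2 with RXRi. The gain in DMSO was thus 4.44-fold over 24 h (2.12 ± 0.12, adjusted p = 1.63e-08), and the RXRi libraries stayed far below DMSO while still above every library at 0 h. RXRi lowered Mogat2 1.48-fold at 6 h (-0.56 ± 0.12, adjusted p = 0.00473) and 3.30-fold at 24 h (-1.70 ± 0.12, adjusted p = 6.41e-08). The retinoid libraries at 24 h overlapped DMSO, and neither difference passed the threshold. For atRA the libraries ranged from 117 to 149.7 RPKM with a difference of 0.16 (95% interval -0.11 to 0.43), and for 9cisRA from 107 to 155 RPKM with 0.10 (-0.17 to 0.37), whose sign turned with quantile normalization (-0.017) and with scaling to read sums (-0.03). The atRA difference passed the threshold in mouse 1 alone (adjusted p = 0.00743) and in a fit of these conditions alone (adjusted p = 0.0332).

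Dgat1 fell with RXRi at both times, to below its level before treatment. With DMSO at 6 h it read 46.6 and 52.4 RPKM in mouse 1 and 55.4 and 51.1 RPKM in mouse 2, against 26.8 and 23.9 RPKM in mouse 1 and 24.7 and 27.6 RPKM in mouse 2 with RXRi. At 24 h the libraries gave 142 and 149 RPKM in mouse 1 and 165 and 172 RPKM in mouse 2 with DMSO and 33.1 and 33.4 RPKM in mouse 1 and 39.8 and 37.1 RPKM in mouse 2 with RXRi. Every RXRi library, at either time, was below every library at 0 h, which ranged from 43.1 to 46.3 RPKM. The difference from DMSO was -0.98 ± 0.063, adjusted p = 1.24e-07 at 6 h, a 2.00-fold lower level, and -2.11 ± 0.063, adjusted p = 9.5e-12 at 24 h, 4.38-fold lower. In DMSO the gene rose 3.51-fold from 0 h to 24 h (1.80 ± 0.063, adjusted p = 2.5e-10). A first small rise by 6 h (0.20 ± 0.063, adjusted p = 0.0213) lost its call without the mouse block (adjusted p = 0.189), without the second DMSO library of mouse 1 (adjusted p = 0.0631) and without the first of mouse 2 (adjusted p = 0.0542). With 9cisRA at 24 h Dgat1 was 1.18-fold higher than with DMSO, with overlapping libraries (163 to 218 RPKM; 0.23 ± 0.063, adjusted p = 0.00933). This call also ended without the mouse block (adjusted p = 0.123) and with scaling to read sums (0.10, adjusted p = 0.162), and quantile normalization lowered the difference to 0.13. The atRA libraries at 24 h read 161, 156, 183 and 189 RPKM, a difference of 0.13 (95% interval -0.0016 to 0.27, adjusted p = 0.111), which passed in limma-voom (adjusted p = 0.0216). Summed enterocyte markers at 6 h were 798 to 1716 RPKM with DMSO and 571 to 1096 with RXRi. Among these markers Fabp2 fell at 6 h (-0.47 ± 0.076, adjusted p = 0.000483), and tests of the others at 6 h are not given here. At 24 h the marker sum was lower with RXRi, as Dgat1, Mogat2 and Cd36 were. The part of these markers in the decreases at either time was not tested.

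Dgat2 rose with all 3 compounds at both times, in contrast to Dgat1. With DMSO at 6 h it read 67.0 and 59.1 RPKM in mouse 1 and 56.4 and 52.8 RPKM in mouse 2, with atRA 76.6, 77.2, 73.0 and 64.2 RPKM, with 9cisRA 86.4, 90.7, 82.1 and 87.2 RPKM and with RXRi 84.9, 84.0, 82.2 and 85.9 RPKM. The atRA libraries overlapped DMSO, and those of 9cisRA and RXRi did not. Differences at 6 h were 0.31 ± 0.057, adjusted p = 0.00748 for atRA, 0.56 ± 0.057, adjusted p = 3.89e-05 for 9cisRA and 0.52 ± 0.057, adjusted p = 1.52e-05 for RXRi. The atRA call at 6 h ended without the mouse block (adjusted p = 0.0501). At 24 h the DMSO libraries lay close together at 73.3, 75.7, 76.1 and 75.6 RPKM. The atRA libraries read 108, 111, 102 and 106 RPKM, those of 9cisRA 143, 143, 139 and 127 RPKM and those of RXRi 116, 119.5, 119.8 and 118 RPKM. No library of any compound overlapped DMSO at 24 h, and 9cisRA gave the highest level. The differences were 0.50 ± 0.057, adjusted p = 2.49e-05 for atRA (1.42-fold), 0.87 ± 0.057, adjusted p = 2.02e-07 for 9cisRA (1.84-fold) and 0.65 ± 0.057, adjusted p = 3.71e-07 for RXRi (1.57-fold). In DMSO, Dgat2 rose 1.42-fold by 6 h (0.49 ± 0.057, adjusted p = 2.03e-05) and 1.81-fold by 24 h (0.85 ± 0.057, adjusted p = 5.4e-08).

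Since RPKM is scaled per length, the levels of both DGAT genes could be set side by side. Dgat2 made up 48.2% ± 0.997 (SD, n = 2) of the summed Dgat1 and Dgat2 RPKM at 0 h and 32.5% ± 2.03 with DMSO at 24 h. With RXRi the share was 76.6% ± 0.432 at 6 h and 76.8% ± 1.73 at 24 h. Individual libraries spanned 30.6% to 34.1% with DMSO and 75.1% to 78.2% with RXRi at 24 h, so Dgat1 was the more abundant DGAT transcript in every DMSO library and Dgat2 in every RXRi library at that time. The retinoids moved the share less, to 38.4% ± 3.45 with atRA and 43.0% ± 5.01 with 9cisRA at 24 h. These shares are given as descriptions, with no test.

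**Figure D2:**
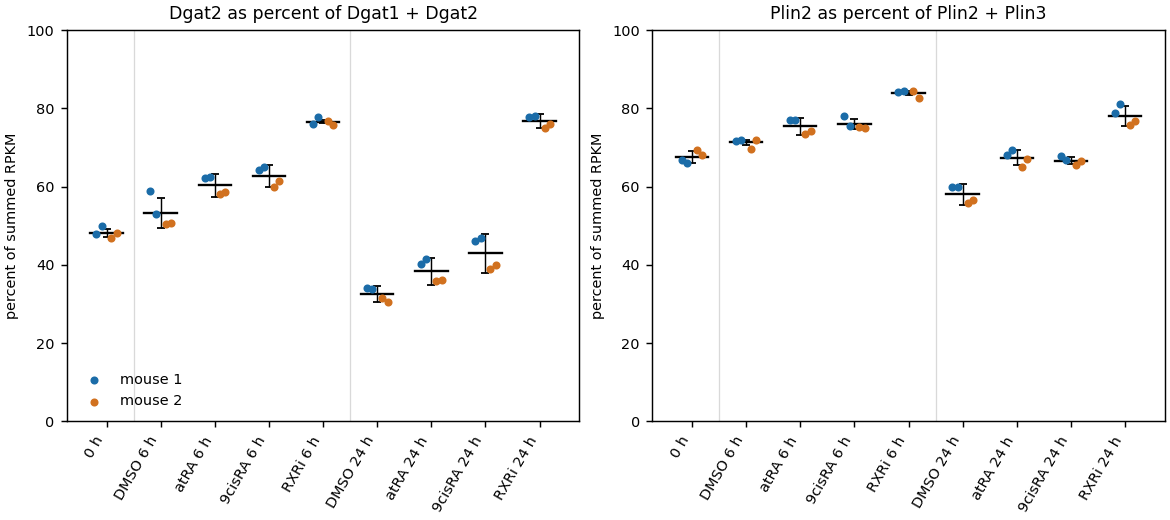
Share of Dgat2 in the summed RPKM of Dgat1 and Dgat2 (left) and of Plin2 in that of Plin2 and Plin3 (right), in percent, for each library by condition. Points are libraries coloured by mouse, lines are means of 2 mice and bars the SD over mice. The Dgat2 share was 30.6% to 34.1% with DMSO at 24 h and 75.1% to 78.2% with RXRi.

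Plin2 (adipophilin), the main coat protein of cytoplasmic droplets outside adipose tissue, had the highest mean RPKM of the 8 genes in 8 of the 9 conditions, the exception being DMSO at 24 h, where Dgat1 was higher. It read 118, 123, 133 and 131 RPKM at 0 h, 205, 188, 182 and 188 RPKM with DMSO at 6 h and 144, 148, 130.4 and 136 RPKM with DMSO at 24 h. In DMSO it thus rose by 6 h (0.59 ± 0.068, adjusted p = 1.94e-05) and fell again by 24 h (-0.45 ± 0.068, adjusted p = 0.000118), to a level that overlapped 0 h (0.15 ± 0.068, adjusted p = 0.0796). The difference from 0 h passed the threshold with 36 libraries as samples (adjusted p = 0.0102), in limma-voom (adjusted p = 0.0198) and in mouse 1 alone (adjusted p = 0.000969). At 24 h Plin2 read 259, 271, 236 and 249.7 RPKM with atRA, 290.2, 285, 302 and 289 RPKM with 9cisRA and 333, 359, 299 and 299 RPKM with RXRi, all above every DMSO library. The differences were 0.86 ± 0.068, adjusted p = 1.49e-06, 1.06 ± 0.068, adjusted p = 1.94e-07 and 1.20 ± 0.068, adjusted p = 4.76e-09, or 1.82, 2.09 and 2.31-fold in the same order. At 6 h RXRi had already raised Plin2 1.61-fold, from DMSO to 312, 323, 307 and 286 RPKM (0.68 ± 0.068, adjusted p = 6.6e-06), and 9cisRA 1.27-fold, to 256, 241, 236 and 235 RPKM (0.34 ± 0.068, adjusted p = 0.00655). The atRA libraries at 6 h (228, 231, 207 and 203 RPKM) overlapped DMSO in part and missed the threshold (0.19 ± 0.068, adjusted p = 0.141), which they passed with 36 libraries as samples (adjusted p = 0.0109), in limma-voom (adjusted p = 0.00569) and in mouse 1 alone (adjusted p = 0.0263).

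Plin3 (TIP47), a perilipin that moves from cytosol to nascent droplets, went the other way with RXRi. At 6 h it read 81.0, 73.3, 79.2 and 73.4 RPKM with DMSO and 58.6, 59.0, 56.6 and 59.9 RPKM with RXRi. At 24 h it read 96.1, 99.4, 103 and 105 RPKM with DMSO and 89.3, 83.8, 96.3 and 90.9 RPKM with RXRi. The groups were separate at 6 h (-0.39 ± 0.048, adjusted p = 5.03e-05) and overlapped at 24 h, where the decrease was small (-0.16 ± 0.048, adjusted p = 0.00915). Both retinoids raised Plin3 at 24 h, to 122, 119, 128 and 123 RPKM with atRA (0.28 ± 0.048, adjusted p = 0.00056) and 138, 142, 159 and 145 RPKM with 9cisRA (0.53 ± 0.048, adjusted p = 2.74e-06), in libraries that did not overlap DMSO. With scaling to read sums the atRA difference was 0.19. In DMSO, Plin3 rose by 6 h (0.34) and further by 24 h (0.74 from 0 h), with both changes called. The share of Plin2 in the summed RPKM of both perilipins was 58.0% ± 2.66 (SD, n = 2) with DMSO and 78.1% ± 2.67 with RXRi at 24 h.

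Pnpla2 (adipose triglyceride lipase), which starts droplet lipolysis, varied least, 1.92-fold between its lowest and highest condition. At 24 h it read 34.9, 33.7, 37.8 and 32.9 RPKM with DMSO and 43.1, 44.4, 46.7 and 47.0 RPKM with RXRi. With atRA it read 47.9, 51.1, 45.7 and 48.3 RPKM, and with 9cisRA 49.2, 52.2, 56.8 and 52.3 RPKM. All 12 libraries with a compound were above all 4 with DMSO, so Pnpla2 rose with atRA (0.47 ± 0.075, adjusted p = 0.000383), 9cisRA (0.59 ± 0.075, adjusted p = 4.17e-05) and RXRi (0.38 ± 0.075, adjusted p = 0.00069). At 6 h its condition means lay between 31.9 and 36.1 RPKM, and the compounds' differences from DMSO, -0.054 for atRA, 0.13 for 9cisRA and 0.031 for RXRi, missed the threshold. The rise in DMSO from 0 h to 6 h (0.26 ± 0.075, adjusted p = 0.0116) lost its call in mouse 2 alone (adjusted p = 0.133).

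**Figure D3:**
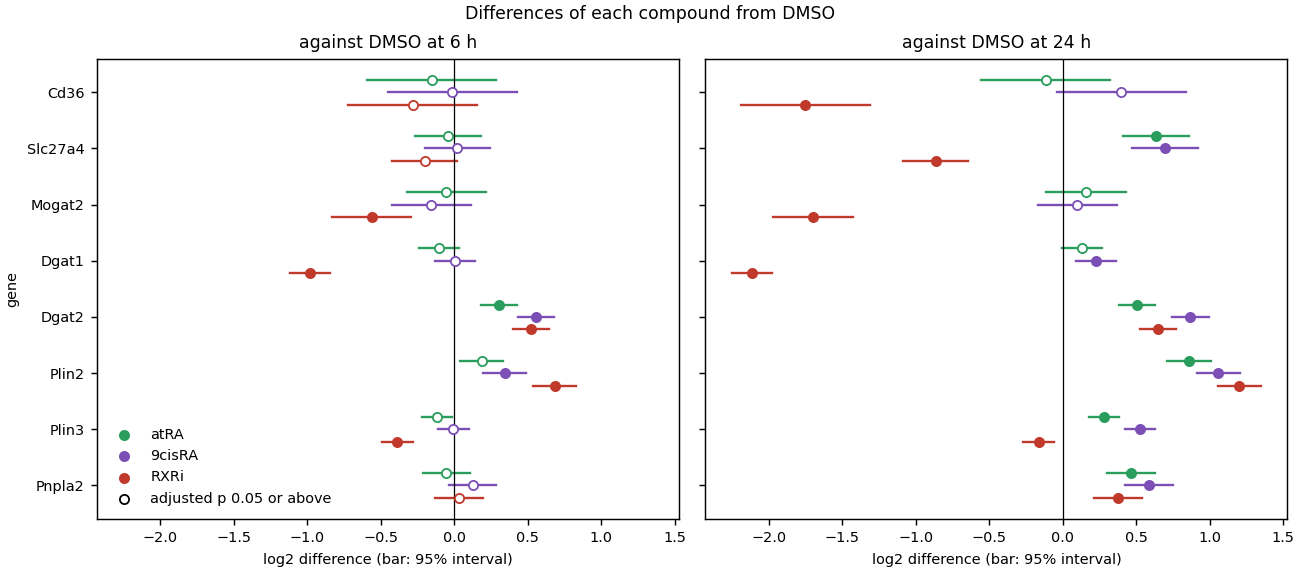
Log2 difference of each compound from DMSO (horizontal axis) for the 8 genes (vertical axis) at 6 h (left) and 24 h (right). Points are limma estimates, filled at an adjusted p below 0.05, and bars are 95% intervals. With RXRi, Dgat1 lay at -2.11 and Dgat2 at 0.65 at 24 h.

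The counts of called genes have to be read against how many genes responded in all. At 6 h, 1 of the 8 genes was called with atRA, where 4.66% of all genes tested were called (2.79% higher and 1.87% lower), and 2 with 9cisRA, where 8.04% were called (5.01% higher and 3.03% lower). RXRi at 6 h gave 2 higher (Plin2, Dgat2) and 3 lower (Dgat1, Mogat2, Plin3), beside 25.2% of all genes (10.6% higher and 14.6% lower). The higher share of those called genes was 42.1% as deposited, 52.1% with quantile normalization and 50.2% with scaling to read sums. At 24 h, atRA gave 5 higher (Plin2, Slc27a4, Dgat2, Pnpla2, Plin3), beside 38.0% of all genes (19.4% higher and 18.6% lower). The same genes and Dgat1, 6 in all, were higher with 9cisRA, beside 47.9% (24.4% higher and 23.5% lower). RXRi at 24 h gave 3 higher (Plin2, Dgat2, Pnpla2) and 5 lower (Dgat1, Cd36, Mogat2, Slc27a4, Plin3), all 8 called, beside 61.5% (31.1% higher and 30.4% lower). The median difference of the 8 genes at 24 h was 0.37 with atRA, 0.56 with 9cisRA and -0.51 with RXRi, against -0.0039, -0.0017 and 0.00076 over all genes tested. Among all called genes the share that was higher depended on scaling: 51.1% for atRA and 51.0% for 9cisRA at 24 h as deposited, and 27.3% and 25.6% with scaling to read sums, which moved the median of all genes by -0.12 in the 9cisRA comparison. Under that scaling the 5 atRA calls and their direction held, and of the 6 with 9cisRA all held but Dgat1.

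In DMSO over time, 6 of the 8 genes were higher at 6 h than at 0 h, beside 45.7% of all genes (22.3% higher and 23.4% lower). At 24 h, 7 were higher than at 0 h, with Plin2 the exception, beside 59.4% (29.2% higher and 30.3% lower). Between 6 h and 24 h, 6 rose and Plin2 fell, beside 49.9% (25.4% higher and 24.5% lower), while Pnpla2 missed the threshold (0.073 ± 0.075, adjusted p = 0.446), which it passed in mouse 2 alone (adjusted p = 0.0382). The largest gains from 6 h to 24 h were those of Cd36 (2.42 ± 0.20), Mogat2 (1.98 ± 0.12) and Dgat1 (1.60 ± 0.063). Cd36 stood at 3.65 in limma-voom. Its gain, its rank here and its place in the counts at 24 h involve a group through which it passed the filter. They are not independent of that selection. Of all called genes 49.1% were higher at 24 h than at 0 h and 50.9% higher at 24 h than at 6 h, shares that were 35.97% and 39.5% with scaling to read sums and 37.9% and 37.1% with quantile normalization. The summed enterocyte markers with DMSO also rose, with libraries at 798 to 1716 RPKM at 6 h and at 8097 to 13261 RPKM at 24 h. The part of these markers was not tested.

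The isomers atRA and 9cisRA were compared directly at 10 µM, in 16 comparisons over the 8 genes and both times. At 6 h Dgat2 alone was called, higher with 9cisRA (0.25 ± 0.057, adjusted p = 0.0431), beside 1.72% of all genes (1.55% higher and 0.167% lower). Of the genes called there, 90.3% were higher with 9cisRA as deposited and 80.3% with quantile normalization. At 24 h Dgat2 (0.37 ± 0.057, adjusted p = 0.0115) and Plin3 (0.24 ± 0.048, adjusted p = 0.0467) were higher with 9cisRA, beside 0.467% (0.299% higher and 0.167% lower). Of the genes called between the isomers at 24 h, 64.2% were higher with 9cisRA as deposited and 45.1% with scaling to read sums. No library overlapped in these 3 cases and each difference had 1 sign in both mice, but all 3 calls were lost with quantile normalization (adjusted p = 0.0756, 0.0523 and 0.0947) and without the mouse block (adjusted p = 0.174, 0.0963 and 0.237). Without the variance trend Dgat2 at 6 h (adjusted p = 0.0679) and Plin3 at 24 h (adjusted p = 0.0806) were lost. The 6 h call of Dgat2 also ended in mouse 1 alone (adjusted p = 0.146), in mouse 2 alone (adjusted p = 0.0596), and without the first atRA library of mouse 1 (adjusted p = 0.0656), the second of mouse 2 (0.195) or the second 9cisRA library of mouse 1 (0.0534) or mouse 2 (0.0567). The Plin3 call at 24 h ended in mouse 1 alone (adjusted p = 0.203), with scaling to read sums (adjusted p = 0.0613), and without the second atRA library of either mouse (adjusted p = 0.0502 and 0.0562), the second 9cisRA library of mouse 1 (0.0615) or the first of mouse 2 (0.0628). For the other genes the difference missed the threshold, which does not show that the isomers act alike. Unadjusted 95% intervals of the 9cisRA minus atRA difference at 24 h were 0.053 to 0.35 for Plin2, 0.076 to 0.95 for Cd36, -0.039 to 0.29 for Pnpla2 and -0.041 to 0.23 for Dgat1. For Slc27a4 the interval was -0.16 to 0.28 and for Mogat2 -0.33 to 0.21. At 6 h they were 0.0091 to 0.30 for Plin2, 0.0091 to 0.22 for Plin3, 0.017 to 0.34 for Pnpla2, -0.026 to 0.25 for Dgat1, -0.37 to 0.17 for Mogat2, -0.16 to 0.29 for Slc27a4 and -0.30 to 0.58 for Cd36. At 24 h Plin2 passed with 36 libraries as samples (adjusted p = 0.0198), in limma-voom (adjusted p = 0.0156) and in mouse 2 alone (adjusted p = 0.0207), and Cd36 in limma-voom (adjusted p = 0.0208) and in a fit of these conditions alone (adjusted p = 0.00014).

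Whether a compound's difference from DMSO changed between 6 h and 24 h was tested as an interaction. With atRA the difference became more positive for 4 genes (Slc27a4, Plin2, Pnpla2, Plin3), beside 17.1% of all genes called. Dgat2 (0.20 ± 0.08, adjusted p = 0.106) and Dgat1 (0.24 ± 0.089, adjusted p = 0.0794) passed in limma-voom (adjusted p = 0.0268 and 0.021). With 9cisRA it became more positive for 5, those genes and Dgat2, beside 18%. For Plin2 the gains were 0.67 ± 0.097 with atRA and 0.72 ± 0.097 with 9cisRA. The RXRi differences of 7 genes changed, beside 35.1% of all genes. Those of Cd36 (-1.47 ± 0.29), Mogat2 (-1.14 ± 0.18), Dgat1 (-1.13 ± 0.089) and Slc27a4 (-0.66 ± 0.15) became more negative, and those of Plin2 (0.52 ± 0.097), Pnpla2 (0.34 ± 0.11) and Plin3 (0.22 ± 0.068) became more positive. The Cd36 change involves a group through which that gene passed the filter. Dgat2, already raised at 6 h by RXRi, was the gene whose RXRi difference missed the threshold for a change (0.13 ± 0.08, adjusted p = 0.236), although it passed in mouse 1 alone (adjusted p = 0.0364). Of all called genes, 58.5% (atRA), 56.0% (9cisRA) and 53.0% (RXRi) had a more positive difference at 24 h, and 25.1%, 20.1% and 39.8% with scaling to read sums. With quantile normalization the atRA share was 48.2%.

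Across the 9 conditions each gene had its own order of levels. For Dgat1 the order from the lowest mean was RXRi 6 h, RXRi 24 h, 0 h, atRA 6 h, DMSO 6 h, 9cisRA 6 h, DMSO 24 h, atRA 24 h and 9cisRA 24 h. Libraries overlapped between neighbours from 0 h to 9cisRA 6 h and again from DMSO 24 h on. Mogat2 ran from RXRi 6 h (19.7 ± 2.38 RPKM) to atRA 24 h (131 ± 18.2 RPKM), with RXRi 24 h (35.6 ± 3.48 RPKM) alone between the early conditions and the other 3 at 24 h. Slc27a4 went from 0 h (19.1 ± 0.442 RPKM) to 9cisRA 24 h (90.8 ± 18.3 RPKM), and Cd36 from RXRi 6 h (0.167 ± 0.0189 RPKM) to 9cisRA 24 h (5.50 ± 2.42 RPKM). Dgat2 was lowest at 0 h (41.5 ± 0.744 RPKM) and highest with 9cisRA at 24 h (138 ± 7.43 RPKM), with RXRi 24 h next below and not overlapping. Plin2 was lowest at 0 h (126 ± 7.95 RPKM), followed by DMSO 24 h, which overlapped it, and highest with RXRi at 24 h (323 ± 32.9 RPKM), which overlapped RXRi 6 h. Plin3 ran from RXRi 6 h (58.5 ± 0.375 RPKM), overlapping 0 h, to 9cisRA 24 h (146 ± 8.88 RPKM). Pnpla2 ran from 0 h (27.4 ± 0.645 RPKM) to 9cisRA 24 h (52.6 ± 2.75 RPKM), and 7 of its 8 neighbouring pairs overlapped.

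The genes were placed in sets after the values were seen, so higher correlations within a set follow in part from that choice. Over 18 mouse-by-condition values, centred within mouse, log2 levels of Cd36, Slc27a4, Mogat2, Dgat1 and Plin3 correlated pairwise at r = 0.880 to 0.983, as a description. Dgat2, Plin2 and Pnpla2 correlated at 0.665 to 0.921, and pairs across these sets ranged from -0.141 (Dgat1 with Plin2) to 0.861 (Plin3 with Pnpla2). The sets were not separate, as Pnpla2 correlated more with Plin3 (0.861) and Slc27a4 (0.804) than with Plin2 (0.665). Both DGAT genes correlated at 0.385. Mogat2 and its neighbour Dgat2 correlated at 0.505. The points share libraries, depth and the same 9 conditions. The genes outside the set with the most similar pattern were Myo1a (r = 0.996) and Pdzd3 (0.996) for Dgat1, Gstm7 (0.995) and Dpep1 (0.994) for Mogat2, Cyb5r3 (0.990) and Gal3st2 (0.990) for Cd36, and Cyp4f13 (0.993) for Slc27a4. For Dgat2 they were Tmem127 (0.966) and Hip1r (0.965), for Plin2 Dusp5 (0.979) and Prmt2 (0.967), for Plin3 Flot1 (0.984) and Tmbim6 (0.980), and for Pnpla2 Mfn2 (0.972) and Lrp10 (0.970).

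Other genes of fatty acid uptake and activation numbered 15, of which 11 were tested. At 24 h, 3 rose and 1 fell with atRA, beside 38.0% of all genes called, a count near that background. With 9cisRA 7 rose and 1 fell, beside 47.9%, and with RXRi 3 rose and 6 fell, beside 61.5%. The list medians were 0.12, 0.24 and -0.26 against -0.0039, -0.0017 and 0.00076 over all genes. Acsl3, an acyl-CoA synthetase of nascent droplets that is also in the droplet list, rose with atRA (1.04 ± 0.087, adjusted p = 2.23e-06), 9cisRA (1.42 ± 0.087, adjusted p = 1.22e-07) and RXRi (1.13 ± 0.087, adjusted p = 1.02e-07), as Plin2 and Dgat2 did. Fabp2, the intestinal fatty acid binding protein, rose with 9cisRA (1.04 ± 0.076, adjusted p = 4.83e-07) and fell with RXRi (-1.29 ± 0.076, adjusted p = 7.15e-09). Slc27a2, a very-long-chain acyl-CoA synthetase, went from 17.97 ± 5.09 RPKM with DMSO to 0.487 ± 0.197 RPKM with RXRi (-4.22 ± 0.21, adjusted p = 1.34e-09). Cav1 (caveolin) fell with atRA (-0.90 ± 0.097) and 9cisRA (-1.03 ± 0.097). In DMSO from 0 h to 24 h, 6 rose, with Fabp1 (2.90 ± 0.21) and Fabp2 (2.20 ± 0.076) among them, and 2 fell, beside 59.4% of all genes called (29.2% higher and 30.3% lower). Fabp1 and Fabp2 are also 2 of the 5 enterocyte markers.

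The glycerol-3-phosphate pathway is the route to diacylglycerol that does not use Mogat2. Of its 13 genes tested (14 listed), 6 rose and 4 fell with RXRi at 24 h (median 0.14), among them Agpat4 (1.29 ± 0.079, adjusted p = 1.03e-08), Gk (0.96 ± 0.067, adjusted p = 4.08e-08) and Agpat2 (0.86 ± 0.071, adjusted p = 1.94e-07), enzymes that acylate lysophosphatidic acid or phosphorylate glycerol. With atRA 5 rose (median 0.12), and with 9cisRA 7 rose and 1 fell (median 0.26), each including Agpat2 (0.87 ± 0.071 and 1.18 ± 0.071). Of all genes, 61.5% were called with RXRi (31.1% higher and 30.4% lower), 38.0% with atRA (19.4% and 18.6%) and 47.9% with 9cisRA (24.4% and 23.5%). The total of the list with atRA is near that background. In DMSO from 0 h to 24 h 6 genes of the list rose, led by Gpat3 (1.78 ± 0.09), and 3 fell, beside the same 59.4% of all genes. Of the other neutral lipid acyltransferases 2 of 6 were tested. Soat2, which esterifies cholesterol in enterocytes, fell with RXRi at 6 h (-1.46 ± 0.094, adjusted p = 1.32e-07) and 24 h (-1.61 ± 0.094, adjusted p = 6.37e-09), from 24.1 ± 1.38 RPKM to 7.52 ± 0.0216 RPKM at 24 h. Soat1, the isoenzyme of most tissues, rose at both times (0.29 ± 0.058 and 0.54 ± 0.058).

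Among 14 tested genes (of 19) of lipid droplet coat and growth, 9 rose with atRA at 24 h (median 0.30). With 9cisRA 10 rose and 1 fell (median 0.43), and with RXRi 2 rose and 6 fell (median -0.17). Of all genes, 38.0% were called with atRA (19.4% higher and 18.6% lower), 47.9% with 9cisRA (24.4% and 23.5%) and 61.5% with RXRi (31.1% and 30.4%). The total of the list with RXRi is near that background. Hilpda, a droplet protein that inhibits the lipase encoded by Pnpla2, was raised by atRA as early as 6 h (1.32 ± 0.098, adjusted p = 1.37e-05) and stood at 1.67 ± 0.098 with atRA and 1.73 ± 0.098 with 9cisRA at 24 h. Hsd17b11, a droplet-bound dehydrogenase, rose from 73.4 ± 2.21 RPKM with DMSO to 268 ± 42.2 RPKM with 9cisRA at 24 h (1.85 ± 0.073, adjusted p = 2.25e-09), and Cidec, a droplet fusion protein, by 1.56 ± 0.089. Both were also higher with 9cisRA than with atRA at 24 h (0.43 ± 0.073, adjusted p = 0.0228, and 0.45 ± 0.089, adjusted p = 0.0467). The 2 that rose with RXRi were Acsl3 and Hilpda (1.22 ± 0.098, adjusted p = 1.54e-07). The largest RXRi decreases in this list were those of Hsd17b13 (-3.37 ± 0.19, adjusted p = 3.7e-09) and Mettl7b (-3.08 ± 0.15, adjusted p = 8.37e-10), both droplet-associated proteins, opposite to Plin2. Mettl7b went from 3.91 ± 0.143 RPKM with DMSO to 0.0146 ± 0.000235 RPKM with RXRi, so the pseudocount compresses its difference, as it does that of Slc27a2. With RXRi the Mettl7b level was near 0, where the SD over mice says little about reproducibility.

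In the lipolysis list 12 of 17 genes were tested. With RXRi at 24 h 1 rose and 9 fell, with a median of -1.31, among them Ces2e (-4.43 ± 0.11, adjusted p = 2.55e-12), a carboxylesterase with close paralogs among which reads may be shared, Aadac (-2.30 ± 0.076, adjusted p = 2.84e-11) and Ddhd2 (-2.00 ± 0.076, adjusted p = 9.66e-11), a triglyceride hydrolase. The gene that rose was Abhd5 (0.29 ± 0.05, adjusted p = 0.000223), the activator of the lipase encoded by Pnpla2, named here, like Hilpda with RXRi, after its value was seen. In DMSO 10 rose from 0 h to 24 h (median 1.12), beside 59.4% of all genes called and 29.2% called higher. Among them were Aadac (1.73 ± 0.076) and Lipa (0.93 ± 0.047), the lysosomal acid lipase. With atRA at 24 h 6 rose and 2 fell (median 0.25), and with 9cisRA 5 rose and 2 fell (median 0.28). Abhd6, a monoacylglycerol lipase, rose with atRA (1.37 ± 0.11, adjusted p = 2.07e-06) and 9cisRA (1.61 ± 0.11, adjusted p = 3.63e-07), as did Lipa (0.70 ± 0.047 and 0.80 ± 0.047), which fell with RXRi at 6 h (-0.56 ± 0.047, adjusted p = 1.47e-06). The counts of these lists stand beside 38.0%, 47.9% and 61.5% of all genes called at 24 h, and the summed enterocyte markers moved in the direction of the RXRi decreases, with their part not tested.

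**Figure D4:**
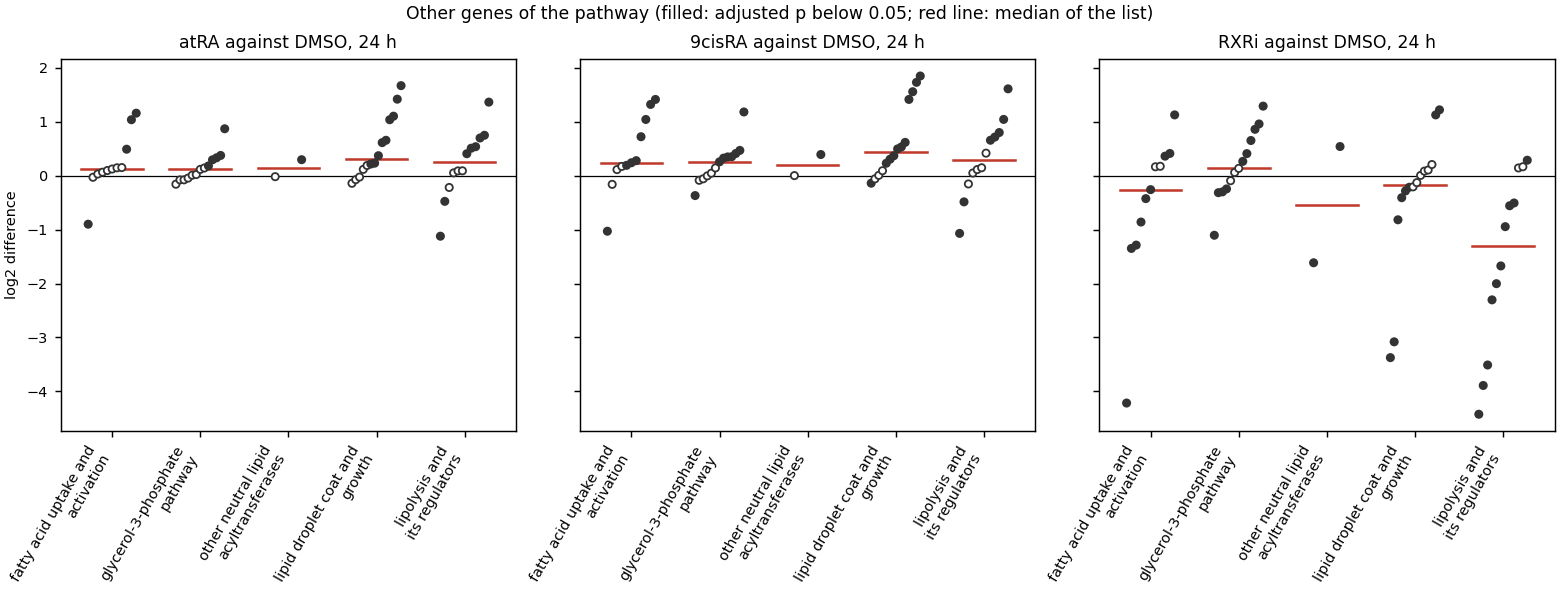
Log2 difference from DMSO at 24 h (vertical axis) for each tested gene of 5 pathway lists (horizontal axis), with 1 panel per compound. Points are genes, filled at an adjusted p below 0.05, and red lines are list medians. With RXRi the lipolysis list had a median of -1.31.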

How the data were processed

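Expression was measured by mRNA sequencing (TruSeq) in 36 organoid libraries. The values analysed are RPKM as deposited by the authors for 12652 genes. The tools bcl2fastq 2.17 and STAR 2.5.2b and the build mm10 are listed in the submitters' processing notes, while the counting tool, strand setting and library divisor are not given in the sources used here. Whole reads were recovered from the RPKM values for 100% of genes (tolerance 0.05 reads), with a divisor of 20.5 to 30.3 M per library. No duplicates were identical. Their reads differed by more than counting noise (chi-square per degree of freedom 3.19 to 15.9).

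Duplicates were averaged, giving 18 values, and 1 limma model (limma 3.58.1, R 4.3.3) with 9 condition means, the mouse as a block and an intensity trend was fitted to log2(RPKM + 0.5) of 11361 genes (at least 1 RPKM in at least 4 libraries; 8 residual and 5.01 prior degrees of freedom). The model gave 14 two-sided comparisons and 95% intervals. The labels name the mouse, and differences between mice correlated across conditions (median r = 0.441, range 0.0372 to 0.662). Those between duplicate numbers varied in sign (median -0.011, range -0.412 to 0.541). P-values rest on 2 cultures. The fit was tested on simulated data.

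The genes and pathway lists were chosen with earlier results of these data known. Named beside them are up to 3 called genes with the smallest p per list and comparison, and the 2 most correlated genes per gene, of which 1 is not reported here. Alternatives changed the pseudocount (0.1 and 1), low-value filter (absent, or set at 5 RPKM on average), scaling, block, variance trend, groups fitted, test (limma-voom) and threshold (0.01), and left out each mouse and library. The limma-voom fit and the fits with 36 libraries as samples did not average duplicates, so their calls rest on libraries rather than on mice. A fit without a mouse takes the duplicates of the other as samples. A fit of the compared conditions alone averages duplicates and leaves few values for the error. Its calls thus lean on the spread borrowed from other genes and add little to the main fit. Promoter sequences and positions are from RefSeq (GRCm38.p6) and GENCODE M21.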

Additional observations from a re-analysis of the deposited data

Results flagged for a closer look

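Among 72 groups of 4 libraries (8 genes in 9 conditions), 3 held a library far from the other 3. For 4 independent values chance gives about 1 in 20 groups. The 4 libraries are duplicates from 2 mice, so that rate is only a rough guide. They were Cd36 with 9cisRA at 6 h (second duplicate of mouse 2, 0.443 RPKM, the highest), Dgat1 with atRA at 6 h (first duplicate of mouse 2, 52.7 RPKM, the highest) and Plin3 with 9cisRA at 6 h (first duplicate of mouse 1, 71.5 RPKM, the lowest). For these genes the compound named did not pass the threshold against DMSO at 6 h.

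The difference from DMSO changed between 6 h and 24 h, by the interaction term in limma, in 16 of 24 tests. With atRA the log2 change was 0.67 for Plin2, 0.68 for Slc27a4, 0.52 for Pnpla2 and 0.40 for Plin3. With 9cisRA it was 0.72 for Plin2, 0.68 for Slc27a4, 0.53 for Plin3, 0.46 for Pnpla2 and 0.31 for Dgat2. RXRi gave -1.47 for Cd36, -1.14 for Mogat2, -1.13 for Dgat1 and -0.66 for Slc27a4, and on the positive side 0.52 for Plin2, 0.34 for Pnpla2 and 0.22 for Plin3. The Dgat2 call with 9cisRA ended with quantile normalization (adjusted p = 0.265), scaling to read sums (0.0812), without the mouse block (0.0678), with only these conditions fitted (0.0779) and in mouse 2 alone (0.258). The Plin3 call with RXRi ended with scaling to read sums (adjusted p = 0.0708), without the mouse block (0.0581), with only these conditions fitted (0.0672), in either mouse alone (0.0623 and 0.0782) and without the first DMSO library of mouse 2 at 6 h (0.0611). The Pnpla2 call with RXRi ended in mouse 2 alone (adjusted p = 0.107) and without the second DMSO library of mouse 2 at 24 h (0.0648), and that with 9cisRA with only these conditions fitted (0.0532).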

How the results depend on the processing

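Over all alternatives, 2524 values of the 8 genes kept direction and side of the threshold, 41 lost the call, 45 gained one and 32 changed sign, all of the latter for differences that were not called. The number of genes called (of 8) moved by over 1.5 times in 4 comparisons, and by less in others. For atRA at 6 h it was 1, 0 without the replicate block of mouse, and 2 with 36 libraries as samples (mouse as block, or mouse and duplicate number as replicate block), with limma-voom and without mouse 2. For 9cisRA against atRA at 6 h it was 1, and 0 with quantile normalization, without the block, without the variance trend, without mouse 1, without mouse 2 and at a threshold of 0.01 (leave-one-out 0 to 1). For the same comparison at 24 h it was 2, and 0 with quantile normalization, without the block and at 0.01, 1 with scaling to read sums, without the variance trend and without mouse 2, and 4 with limma-voom (leave-one-out 1 to 2). For the change of the 9cisRA difference over time it was 5, and 3 with only these conditions fitted and at 0.01. The cause was not tested.

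Differences that changed sign were as follows. Without mouse 2 Cd36 was 0.033 for 9cisRA at 6 h, -0.14 for DMSO at 6 h against 0 h and -0.062 for the atRA change over time, Dgat1 was -0.032 for 9cisRA at 6 h, and Pnpla2 was -0.077 for RXRi at 6 h and -0.076 for DMSO at 24 h against 6 h. Without mouse 1 Cd36 was 0.035 for atRA at 24 h, Mogat2 0.010 between the isomers at 24 h and Plin3 0.032 for 9cisRA at 6 h. Scaling to read sums gave -0.041 for the atRA change of Cd36, -0.030 for Mogat2 with 9cisRA at 24 h and -0.0050 for Dgat1 with 9cisRA at 6 h. A pseudocount of 1 gave -0.0072 for the atRA change of Cd36, quantile normalization -0.017 for Mogat2 with 9cisRA at 24 h, and limma-voom 2.3e-05 for Plin3 with 9cisRA at 6 h. Leave-one-out ranges that spanned 0 were -0.089 to 0.060 (Cd36), -0.014 to 0.056 (Slc27a4), -0.036 to 0.047 (Dgat1) and -0.041 to 0.031 (Plin3) for 9cisRA at 6 h, -0.054 to 0.13 for the atRA change of Cd36, and -0.11 to 0.0049 (atRA) and -0.014 to 0.076 (RXRi) for Pnpla2 at 6 h. Scaling to read sums moved the median of all genes by over 0.1 in 2 comparisons, to -0.12 for 9cisRA at 24 h and -0.11 for its change over time. Of the counts of called genes per pathway list under alternatives, 253 stayed within 1.5 times those reported and 27 moved. Depth limited Cd36, with 10 to 49 reads per library before 24 h.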

Other observations

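At 24 h the 2 mice differed in the same direction for 5 of the 8 genes. In each of the 4 conditions at that time, both libraries of mouse 2 were above both of mouse 1 for Cd36, Slc27a4, Mogat2, Dgat1 and Plin3. The share of all genes tested with such a mouse order was not determined, so it cannot be called a trait of these genes. Over all genes tested, mouse differences correlated between conditions (median r = 0.441). With DMSO the means of mouse 1 and mouse 2 were 103 and 132 RPKM for Mogat2 and 48.4 and 63.1 RPKM for Slc27a4. For Plin2 the order was the other way with DMSO (146 and 133 RPKM), atRA (265 and 243 RPKM) and RXRi (346 and 299 RPKM).

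Summed markers of other cell states were set side by side at 24 h as a description, with no test. Summed epithelial markers (Epcam, Cdh1, Krt8, Vil1, Cdx2) were 4531 to 5001 RPKM with DMSO and 7929.6 to 8243 with RXRi, the direction of Plin2, Dgat2 and Pnpla2. The rise of this sum was mainly Krt8, which spanned 3212 to 7000 RPKM over all libraries. The highest library values of Epcam, Cdh1, Vil1 and Cdx2 were 559.6, 423, 668 and 88.6 RPKM, and their direction with RXRi is not given here. Summed stem cell markers (Lgr5, Ascl2, Olfm4) were 22.9 to 30.7 RPKM with DMSO, 10.1 to 15.1 with atRA, 8.79 to 11.1 with 9cisRA and 4.41 to 8.48 with RXRi. Over all libraries Olfm4 reached 26.2 RPKM, Ascl2 10.1 and Lgr5 1.17. Goblet markers (Muc2, Tff3, Agr2) were 312 to 357 RPKM with DMSO and 381 to 588 with RXRi. With atRA (298 to 351 RPKM) and 9cisRA (268 to 382) they overlapped DMSO. Tff3 reached 374 RPKM, Agr2 210 and Muc2 4.18. Paneth markers (Lyz1, Defa24, Mmp7) were 156 to 245 RPKM with DMSO, 90.6 to 238 with atRA, 121 to 168 with 9cisRA and 38.5 to 122 with RXRi. The part of these markers in the differences of the 8 genes was not tested.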
